A study of Sus scrofa with 4 samples.

Results

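The genes described here encode the subunits of the transcription factor nuclear factor kappa B (NF-κB) and the proteins that hold it in check. The list named 10 genes: the inhibitors TNFAIP3, TNIP1, NFKBIA, NFKBIE and NFKBIZ, the subunits NFKB1, NFKB2, RELA and RELB, and the repressing factor NKRF. They were read through all probes that carried 1 of these gene names on a porcine oligonucleotide array, a rule that uses names and no threshold on a value. This gave 16 probes for 7 of the 10 genes, out of 43603 probes with 34853 gene names on the array. NFKBIE, NFKBIZ and RELB had no probe of that name and were not analysed under the rule. The members were chosen with earlier results of these data known. Their counts beside the shares of all gene names are therefore descriptions and not independent support.

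One array was hybridized for each of 4 conditions of a cell line from the longissimus thoracis muscle of a single Duroc pig, so that no condition had a replicate. PIP were undifferentiated porcine intramuscular preadipocytes at 0 days of differentiation. pMA were the same cells after 4 days in medium with 50 ng/mL insulin, 0.25 μM dexamethasone, 2 mM octanoate and 200 μM oleate, and received no stimulus. The other arrays held pMA made in the same way and then kept for 12 h with 2.5 µg/mL TNF-α or with 100 μM serotonin, a dose that the sample labels write per mL. All cells were grown with 10% serum between passages 26 and 35, and dexamethasone, itself an anti-inflammatory glucocorticoid, was part of the medium of every pMA condition. The methods state that the RNA of a condition was pooled for labelling. Each array therefore stands for 1 pool, no p-value can be given, and fewer cells of a type and less RNA per cell cannot be told apart. Neither the sample titles nor the methods say whether unstimulated pMA were also kept for the 12 h. A stimulus and the added time in culture therefore cannot be told apart.

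NF-κB is a dimer that waits in the cytoplasm, bound by IκB proteins such as the product of NFKBIA. TNF-α binding to its receptor activates a kinase complex that marks the IκB proteins for destruction, and the freed dimer, often p50 from NFKB1 with p65 from RELA, enters the nucleus. NFKBIA and TNFAIP3 are themselves classical NF-κB targets: new IκBα carries the dimer back out of the nucleus, and TNFAIP3 (A20), a ubiquitin-editing enzyme, acts with its partner TNIP1 (ABIN-1) upstream on the receptor complex. NFKB2 encodes p100, the precursor of p52, which serves the slower non-canonical branch together with RELB. In adipocytes TNF-α is known for raising inflammatory secretion and for opposing the adipogenic program.

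The statements below rest on short DNA probes, and the sequences that carry the main differences are shown so that each value can be tied to a stretch of transcript. They are written 5′ to 3′ as the array design gives them, all in lower case because no motif was searched. Each is 60 bases long, and the longest run of bases that 2 probes of the same gene among them shared was 6, so that the probes of TNIP1 and of NFKB2 read different stretches.
TNFAIP3 A_72_P374863: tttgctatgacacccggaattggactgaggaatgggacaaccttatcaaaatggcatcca
TNIP1 A_72_P230337: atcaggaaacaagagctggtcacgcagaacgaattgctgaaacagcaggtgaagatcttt
TNIP1 A_72_P559234: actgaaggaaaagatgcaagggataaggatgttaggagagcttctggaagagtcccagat
NFKBIA A_72_P165846: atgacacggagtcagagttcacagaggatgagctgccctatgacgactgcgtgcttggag
NFKB1 A_72_P146316: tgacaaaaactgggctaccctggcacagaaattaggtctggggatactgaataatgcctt
NFKB2 A_72_P490153: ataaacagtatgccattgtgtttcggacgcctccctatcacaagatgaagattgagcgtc
NFKB2 A_72_P093531: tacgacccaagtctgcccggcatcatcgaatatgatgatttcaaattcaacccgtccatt

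Levels are given as log2 intensity relative to the 75th percentile of the same array, so that 0 is the 75th percentile, and a log2 ratio of 1 between 2 arrays is a 2-fold difference, the cutoff used in the methods. All 16 probes were well above background on all 4 arrays and none was saturated. Across the arrays 56.5% to 66.0% of all probes were well above background, and the faintest of them lay between -5.25 and -4.64. Where a probe was spotted repeatedly on an array, its log2 values had a standard deviation (SD) of 0.11 to 0.15. This gives a technical SD of 0.17 to 0.20 for a log2 ratio, which holds spot noise but no variation between cultures. The SD rests on the 25 to 32 repeated probes per array that were well above background and is pooled over their intensities. Each member probe had a single spot, so its own spot noise was not measured, nor was that of faint probes separately. Of the adipocyte markers, CD36, the fatty acid transporter, went from -3.99 in PIP to 1.18 in pMA and CIDEC, a lipid droplet protein, from -4.69 to -0.82, whereas ADIPOQ and PLIN1 were not well above background in pMA. The macrophage marker CD163 was not well above background on any array, while CD14 lay between 0.44 and 1.56 and AIF1 between -2.93 and -1.97.

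**Figure D1:**
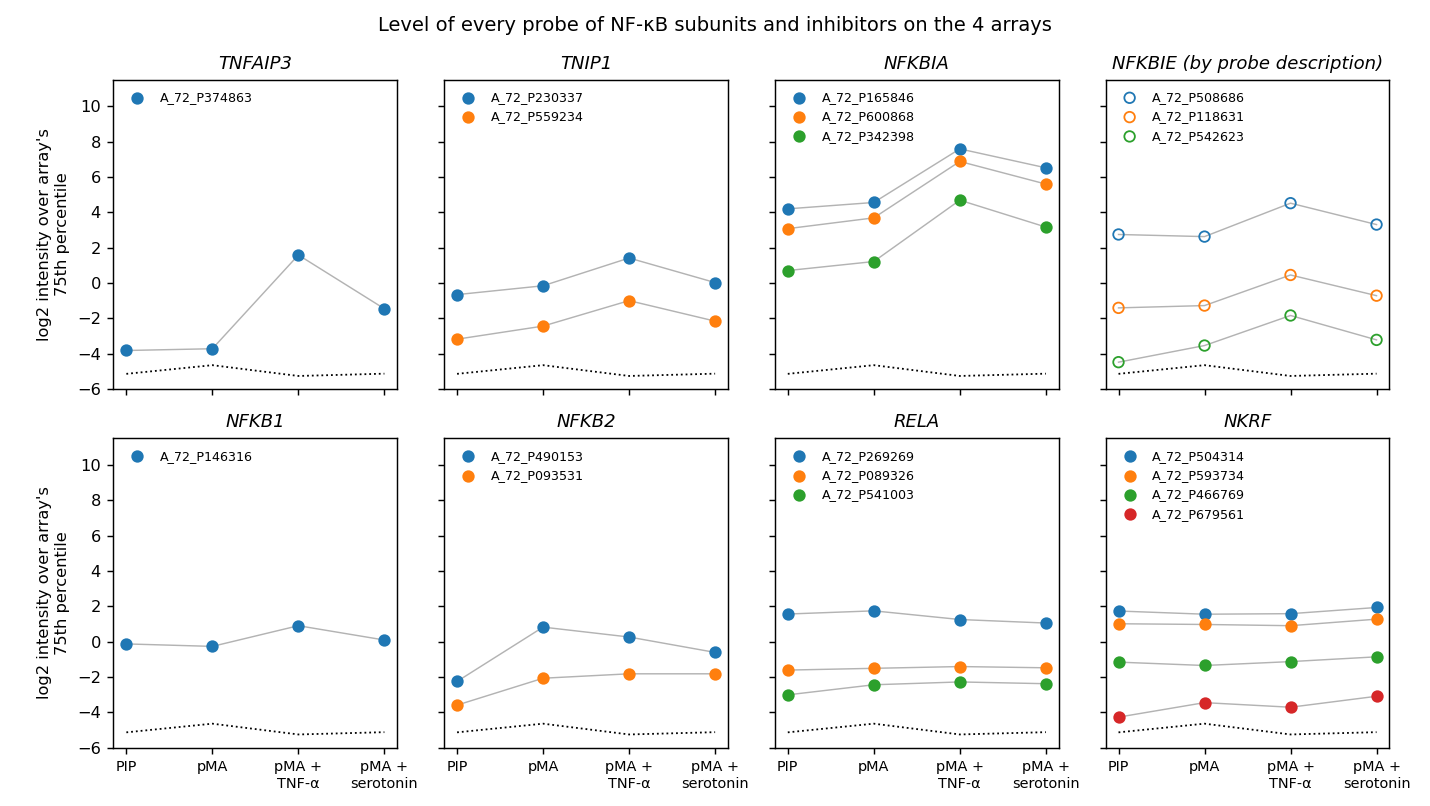
Level of every probe on the 4 arrays, as log2 intensity over the array's 75th percentile, with 1 panel per gene and 1 colour per probe; grey lines join the values of a probe, the dotted line marks the faintest probe well above background, and open circles are the NFKBIE probes found by their description. TNFAIP3 goes from -3.71 in pMA to 1.59 with TNF-α and -1.45 with serotonin, and the 3 NFKBIA probes move in parallel, while the RELA probes span at most 0.73.

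The first question was how TNF-α altered these genes in pMA. In the TNF-α comparison 4 of the 7 measured genes, TNFAIP3, NFKBIA, TNIP1 and NFKB1, were at least 2-fold higher than in unstimulated pMA and none was 2-fold lower. Among all 19782 gene names with a ratio 3.56% differed at least 2-fold, 2.21% being higher. The share of higher among all differing gene names was 62.2%, and between 49.3% and 72.5% under other scalings. The 7 genes had a median log2 ratio of 1.17, against 0.01 for all gene names. By probe, 7 of 16 were at least 2-fold higher, where 2.27% of all probes were. On the same arrays the proliferation markers CDK1 and CCNB1 went from -1.24 to 0.28 and from -1.65 to 0.15, and MKI67 from 4.33 to 4.27, their summed level being 4.38 and 4.43. The part of these markers in the differences was not tested.

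TNFAIP3 showed the widest span of the members. Its probe measured -3.81 in PIP, -3.71 in pMA, 1.59 after TNF-α and -1.45 after serotonin. PIP and pMA were both low and almost the same, the TNF-α array stood far above all others, and the serotonin array lay between. TNF-α stood 5.29 log2 units above unstimulated pMA, a 39.2-fold difference, and 2 gene names on the array had a higher ratio. In PIP and in pMA the probe was faint, with an intensity of 36.7 and 36.6. Under normexp background correction with an offset of 50 the log2 ratio after TNF-α was 3.86.

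NFKBIA, which encodes IκBα, was read by 3 probes. Probe A_72_P165846 measured 4.20 in PIP, 4.56 in pMA, 7.59 after TNF-α and 6.52 after serotonin. Probe A_72_P600868 measured 3.08, 3.69, 6.88 and 5.60 on the same arrays, and probe A_72_P342398 measured 0.71, 1.22, 4.69 and 3.17. All 3 probes put the conditions in the same order, with TNF-α highest and PIP lowest. After TNF-α their log2 ratios were 3.04, 3.19 and 3.47, which is 8.22-fold to 11.1-fold, and 32 gene names had a higher ratio than the brightest probe.

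TNIP1 encodes the A20-binding partner that links TNFAIP3 to ubiquitin chains. Its brighter probe measured -0.65 in PIP, -0.15 in pMA, 1.42 after TNF-α and 0.03 after serotonin, and its fainter probe -3.17, -2.43, -0.99 and -2.15. Of the stimulated arrays the TNF-α one alone stood apart from unstimulated pMA beyond 2 technical SDs, by a log2 ratio of 1.56 and 1.44 in these 2 probes. The brighter probe gave a 2.95-fold difference, with 156 gene names above it.

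Among the subunits, NFKB1, the gene of p105 and p50, was the single one at least 2-fold higher after TNF-α. Its probe measured -0.13 in PIP, -0.27 in pMA, 0.90 after TNF-α and 0.09 after serotonin. The log2 ratio to unstimulated pMA was 1.17, a 2.25-fold difference, and lay between 1.02 and 1.24 over 9 alternative ways of processing. RELA, the gene of p65, was not 2-fold different in any probe. Its brightest probe measured 1.56, 1.74, 1.25 and 1.05 in PIP, pMA, TNF-α and serotonin, the next -1.61, -1.51, -1.41 and -1.48, and the faintest -3.01, -2.44, -2.28 and -2.38. The brightest RELA probe was lower after TNF-α by a log2 ratio of -0.50 while the other 2 gave 0.09 and 0.16, so the direction depended on the probe.

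**Figure D2:**
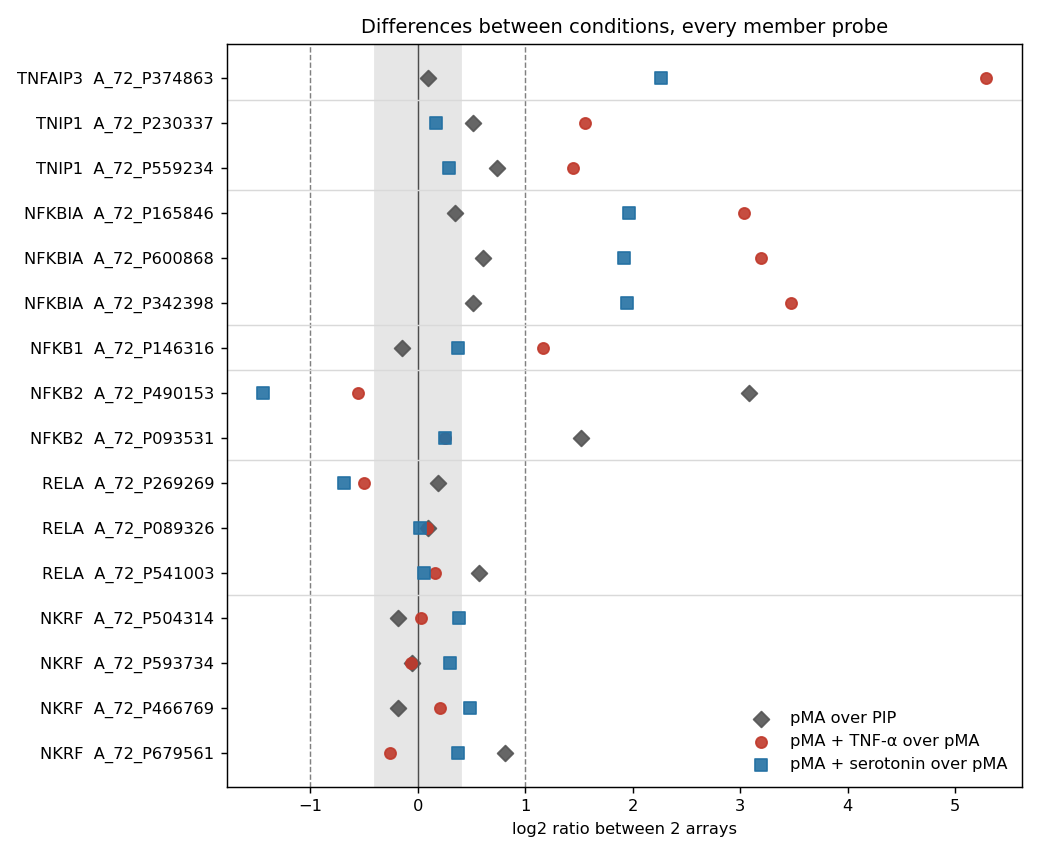
Log2 ratio between 2 arrays for each of the 16 member probes, for pMA over PIP (diamonds), TNF-α over unstimulated pMA (circles) and serotonin over unstimulated pMA (squares); dashed lines mark 2-fold and the grey band 2 technical SDs of 0.20 on either side of 0. The probes of TNFAIP3, TNIP1, NFKBIA and NFKB1 lie beyond 2-fold for TNF-α, those of TNFAIP3 and NFKBIA also for serotonin, and the largest ratio for pMA over PIP is that of an NFKB2 probe, 3.08.

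NFKB2 was the member that differed most with differentiation. Probe A_72_P490153 measured -2.25 in PIP, 0.82 in pMA, 0.26 after TNF-α and -0.61 after serotonin. Probe A_72_P093531 measured -3.59, -2.07, -1.82 and -1.82. Both were lowest in PIP, with log2 ratios of 3.08 and 1.52 for pMA over PIP, or 8.43-fold and 2.86-fold, and 40 gene names had a higher ratio than the first. After stimulation the probes parted: the first was lower than in unstimulated pMA, with log2 ratios of -0.56 for TNF-α and -1.44 for serotonin, and the second was 0.25 higher in both. The 2.71-fold lower value after serotonin therefore rests on 1 of 2 probes of the same Ensembl transcript, and the median over both probes was -0.59.

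For differentiation, NFKB2 was the only 1 among the 7 to reach 2-fold between pMA and PIP, being higher in pMA. Of the 18633 gene names with a ratio 13.5% did so, 9.94% being higher. The 7 genes had a median log2 ratio of 0.19, against 0.12 for all gene names. At the probe read for each gene the log2 ratios were 0.51 for TNIP1, 0.35 for NFKBIA, 0.19 for RELA, 0.10 for TNFAIP3, -0.15 for NFKB1 and -0.18 for NKRF. The NKRF probes disagreed, from -0.18 to 0.81, the last being a 1.76-fold higher value in pMA at the faintest probe. These small differences moved with the scaling: scaling to the median shifted the ratio of all gene names from 0.12 to -0.22 and scaling to the bright spike-in controls shifted it to 0.52, and TNFAIP3, RELA, NFKB1 and NKRF changed sign between settings. NFKB2 stayed between 2.30 and 3.45 and TNIP1 between 0.16 and 0.89. Of the 3 proliferation markers on the array, CDK1, the mitotic kinase, was at 2.78 in PIP and -1.24 in pMA, CCNB1, its cyclin, at 3.26 and -1.65, and MKI67 at 4.74 and 4.33. Their part in the NFKB2 difference was not tested.

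Serotonin was compared with the same unstimulated array, which enters both stimulation comparisons, so that chance values of this array move both sets of ratios together. After serotonin TNFAIP3 and NFKBIA were at least 2-fold higher and NFKB2 at least 2-fold lower, which made 3 of 7 genes where 6.82% of the 19095 gene names with a ratio differed that much, 2.08% being higher and 4.73% lower. With each gene read at the median of its probes 2 of 7 differed that much, NFKB2 being at -0.59. The 7 genes had a median log2 ratio of 0.37, against 0.01 for all gene names. TNFAIP3 had a log2 ratio of 2.26, a 4.78-fold difference, with 43 gene names above it, and 1.19 under normexp background correction. The 3 NFKBIA probes gave 1.97, 1.92 and 1.95, which is 3.78-fold to 3.91-fold, and 61 gene names lay above the brightest. The TNIP1 probes gave 0.17 and 0.29, both under 2 technical SDs, and NFKB1 gave 0.37, which is 2.1 technical SDs. The brightest RELA probe was lower, at -0.69 or 1.62-fold, which is 4.0 technical SDs, while the other 2 gave 0.02 and 0.06. Markers of other cell types moved on the same array. The summed level of the 6 skeletal muscle markers went from 9.36 to 7.45 and rested almost wholly on ACTA1, which went from 9.33 to 7.40. DES went from 3.26 to 2.24, MYOG from -0.37 to -0.38 and PAX7 from 0.16 to 0.56. The myogenic factors MYOD1 and MYF5 were not well above background on any array. For the 4 endothelial markers the summed level went from 0.19 to -1.07, with PECAM1 from -0.20 to -1.66 and CDH5 not well above background on any array. The summed level of the 10 adipocyte markers went from 3.17 to 4.54, although FABP4 within it went from -1.67 to -4.44. That of the 5 measured preadipocyte or fibroblast markers went from 9.04 to 8.65. Among these COL1A1 went from 2.89 to 1.48, THY1 from 5.46 to 4.59 and VIM from 8.89 to 8.55, whereas PDGFRB went from -1.86 to -1.59. The part of these markers in the member values was not tested.

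NKRF, a nuclear protein that represses several NF-κB target promoters, was not 2-fold different in any comparison. Its brightest probe measured 1.73 in PIP, 1.55 in pMA, 1.58 after TNF-α and 1.93 after serotonin, and its faintest -4.27, -3.45, -3.71 and -3.09. The first 3 probes spanned 0.37 to 0.49 over the arrays, and the faintest spanned 1.18. All 4 probes were highest after serotonin, by log2 ratios of 0.30 to 0.49 over unstimulated pMA, whereas after TNF-α they lay between -0.26 and 0.21. The brightest of these probes and A_72_P593734, the next one, shared a run of 14 bases and are not fully separate readings.

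The levels of the 4 conditions can be ordered for each gene, with a gap between neighbours taken as beyond the spread where it exceeded 2 technical SDs. For TNFAIP3 and all NFKBIA probes the TNF-α array was above serotonin and serotonin above unstimulated pMA, and both gaps exceeded the spread. For both TNIP1 probes TNF-α was above serotonin, and serotonin did not differ from unstimulated pMA beyond the spread. For NFKB1 TNF-α was above serotonin and serotonin 0.22 above PIP, a gap within the spread, while unstimulated pMA was lowest. For RELA no gap between neighbours exceeded it in 2 of 3 probes, and in the faintest only the gap to PIP did, 0.57, although the ends of the order in the brightest probe, pMA and serotonin, lay 0.69 apart. For NKRF 3 of 4 probes had no such gap. The NFKB2 probes differed in their order. Probe A_72_P490153 ran from unstimulated pMA through TNF-α and serotonin to PIP, with every gap beyond the spread. In A_72_P093531 only the gap of 1.52 from unstimulated pMA to PIP exceeded it.

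TNF-α and serotonin were also compared directly, which leaves the unstimulated array out. Here TNFAIP3, TNIP1 and NFKBIA were at least 2-fold higher with TNF-α, 3 of the 7 genes, where 6.90% of the 21862 gene names with a ratio differed that much and 5.07% were higher. The log2 ratios were 3.04 for TNFAIP3 or 8.21-fold, 1.39 and 1.15 for the TNIP1 probes, and 1.07, 1.28 and 1.53 for the NFKBIA probes. NFKBIA at its brightest probe was below the cutoff after quantile normalization, at 0.87, and after scaling to the median, at 0.95, which left 2 of the 7 genes. NFKB1 was at 0.80, NFKB2 at 0.88 and -0.00 in its 2 probes, and the NKRF probes lay between -0.63 and -0.28. The doses of the 2 agents are not matched, so their sizes of response are set side by side only.

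NFKBIE, which encodes IκBε, a further inhibitor that NF-κB induces, was read by 3 probes that carried a transcript number in place of a gene name and named the epsilon inhibitor in their description. They lie outside the rule and were added after their values had been seen. The brightest measured 2.75 in PIP, 2.63 in pMA, 4.52 after TNF-α and 3.31 after serotonin. The next measured -1.40, -1.27, 0.46 and -0.71, and the faintest -4.47, -3.53, -1.83 and -3.21. All 3 were highest after TNF-α, with log2 ratios of 1.89, 1.73 and 1.70 to unstimulated pMA, and gave 0.68, 0.56 and 0.32 after serotonin.

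The rest of the pathway was read through 5 lists with 88 genes in all, of which 55 had a probe of that name. The lists were written from general knowledge but with earlier results of these data known. Their counts are therefore descriptions and not independent support. After TNF-α, none of the 23 genes with a ratio in the 4 lists upstream of or beside NF-κB, which were receptors and adaptors, kinases, other subunits and IκB proteins, and other inhibitors, differed 2-fold. With 3.56% of all gene names past the cutoff, a count of 0 among 23 is near the background. Their median log2 ratio was 0.05 and their range -0.33 to 0.81. The receptor TNFRSF1A, through which TNF-α signals, measured 4.61 in PIP, 4.70 in pMA, 4.52 after TNF-α and 4.77 after serotonin. After serotonin 3 of 24 differed 2-fold, or 12.5%, against 6.82% of all gene names. IL1R1, the interleukin-1 receptor, was higher by a log2 ratio of 1.08, the adaptor TRAF5 lower at -1.05, and IER3, an early response gene listed with the inhibitors, higher at 1.77. IER3 measured 1.93 in PIP, 0.82 in pMA, 1.63 after TNF-α and 2.59 after serotonin, and its 2 probes gave 1.70 and 1.77 for serotonin.

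Of 37 NF-κB target genes on the list 31 had a probe and 27 a ratio after TNF-α, 12 of them at least 2-fold higher and 1 lower. This is 48.1%, against 3.56% of all gene names, with a median log2 ratio of 0.84 against 0.01. Lower bounds stood for 5 of the 27. Of the 12 higher genes, TLR2, VCAM1 and BCL2A1 had a ratio only because they were well above background with TNF-α. Target genes dim on both arrays, such as IL1B and CSF2, are missing from the 27, so the share leans towards genes high with TNF-α. Where all 4 arrays had to be well above background, 7 of 41 genes of all lists differed, in place of 13 of 50. The complement genes C3 and CFB had log2 ratios of 6.09 and 5.19. Both were faint in unstimulated pMA, at -4.02 and -4.15, so their folds are uncertain. The faintest probe well above background on that array lay at -4.64. The mitochondrial superoxide dismutase SOD2 had a log2 ratio of 3.67 and the chemokines CCL20 and CXCL2 3.59 and 3.27. The cytokine IL1A had 2.28 and the chemokine CXCL10 1.95. TLR2, a pattern recognition receptor, was dim in unstimulated pMA and stood at least 5.96-fold higher with TNF-α. C3 ranged from 3.79 to 7.02 over 5 probes and SOD2 from 3.29 to 4.04 over 7 probes. Only 2 of the C3 probes had a ratio after serotonin, so the C3 range may hold lower bounds from probes dim in pMA. The remaining genes past the cutoff were IL6 at 1.63, CCL2 at 1.49, the adhesion molecule VCAM1 at least 3.37-fold and BCL2A1 at least 2.20-fold higher, and SELE at least 2.02-fold lower; these were named beyond the rule of the 8 largest, after their values were seen.

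After serotonin 25 target genes had a ratio, 6 at least 2-fold higher and 3 lower, where 2.08% of all gene names were higher and 4.73% lower. Their median log2 ratio was 0.14, against 0.01 for all gene names. Lower bounds stood for 5 of the 25. Of the 3 lower genes, CCL4 had a ratio only because it was well above background in unstimulated pMA. Higher were IL1A at 3.79, the prostaglandin synthase PTGS2 at 3.29, CXCL2 at 3.06, CCL20 at 1.79, CFB at 1.64 and SOD2 at 1.53. Lower were the chemokines CXCL10 at -1.14, CCL4 at least 2.64-fold and CCL5 at -1.04, the last named after its value was seen. CXCL10 measured -0.49 in pMA, 1.46 after TNF-α and -1.63 after serotonin, so that the unstimulated array lay between the stimulated ones. Set against each other, TNF-α was above serotonin for CXCL10 by 3.09 and below it for IL1A by -1.51 and for PTGS2 by -2.36.

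**Figure D3:**
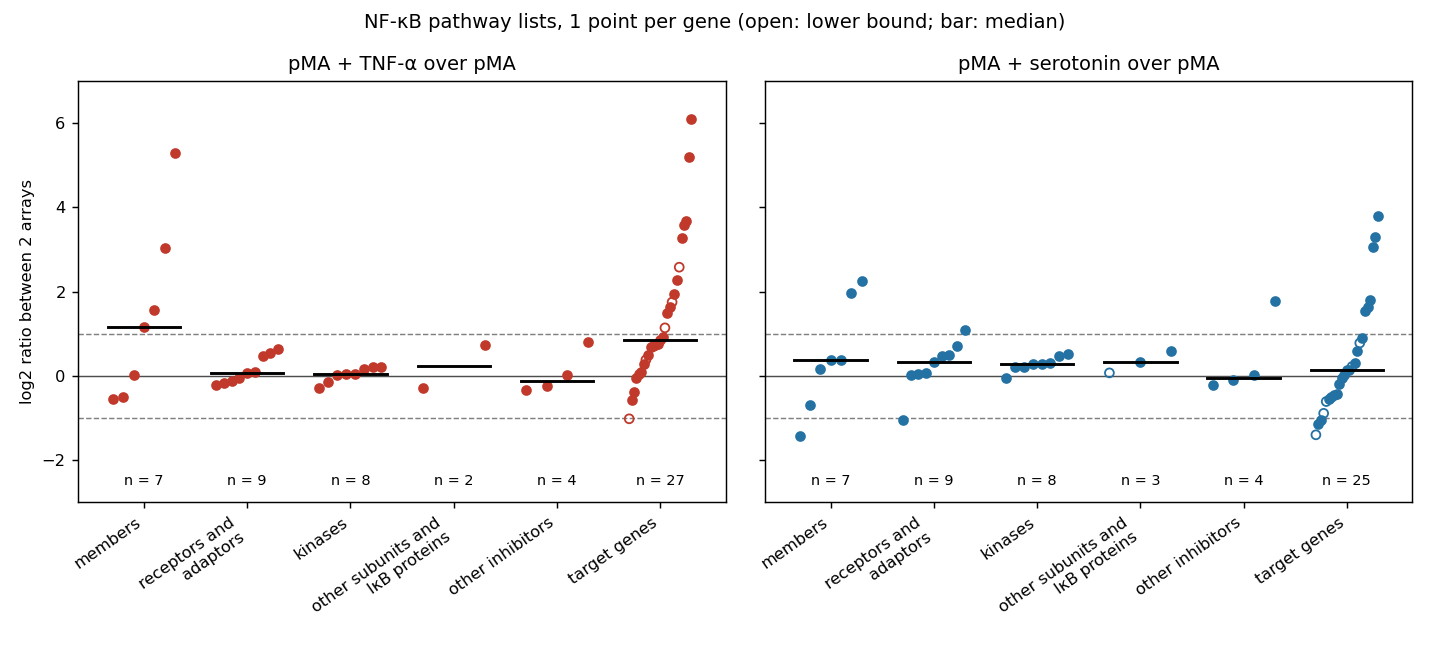
Log2 ratio of each gene, 1 point per gene at its brightest probe, in the member list and the 5 pathway lists, for TNF-α (left) and serotonin (right) over unstimulated pMA; open circles are lower bounds of a change, black bars medians, dashed lines 2-fold, and n is the number of genes with a ratio. The members and the target genes reach 5.29 and 6.09 after TNF-α, and the other lists lie between -0.33 and 0.81.

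The profile of TNFAIP3 over the 4 arrays was set against those of 4632 gene symbols well above background on all 4, by the Euclidean distance between log2 levels centred on each gene's mean. The 5 nearest were C1H15orf48 at a distance of 1.06, FCHO1 at 1.07, SOD2 at 1.19, CCL20 at 1.48 and PTGIR, the prostacyclin receptor, at 1.69. With 4 arrays and no replicate this is a description of 4 values. All 5 were highest after TNF-α, which follows from picking them by likeness to TNFAIP3 and is no separate finding. Their log2 ratios to unstimulated pMA were 4.24, 5.03, 3.67, 3.59 and 3.22. NFKBIA was the 9th nearest at 1.81. Under normexp background correction 3 of the 5 stayed among the nearest 5.

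**Figure D4:**
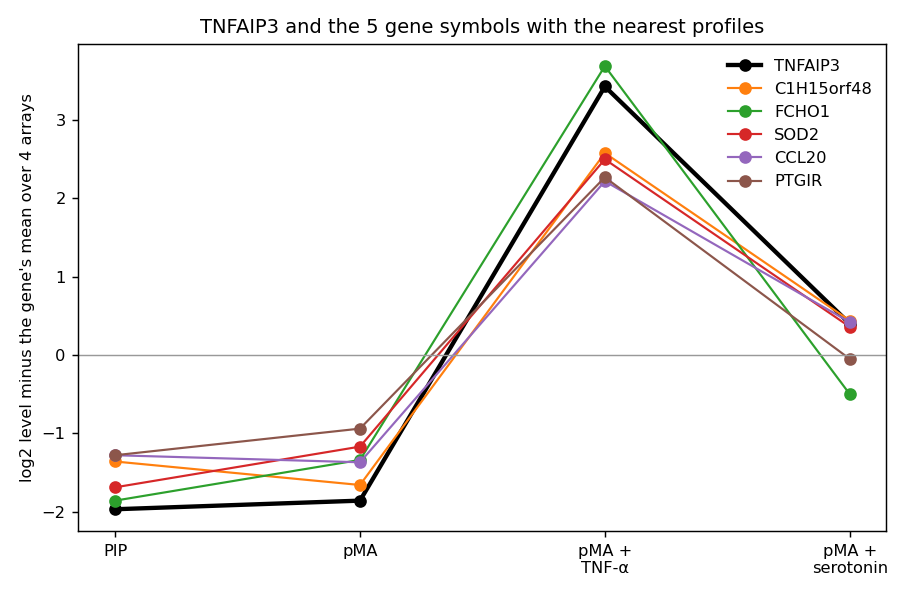
Log2 level minus the gene's mean over the 4 arrays for TNFAIP3 (thick black line) and the 5 gene symbols with the nearest profiles, by condition. TNFAIP3 goes from -1.97 in PIP and -1.86 in pMA to 3.43 after TNF-α and 0.40 after serotonin. The other 5, picked by their likeness to it, are for that reason also highest after TNF-α.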

How the data were processed

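Total RNA of 4 conditions was labelled with Cy3 and hybridized to 4 porcine 4x44K arrays on 1 slide. Per the file headers the deposited spot intensity values are processed signals of Agilent Feature Extraction 10.7.3.1, background-subtracted in 1 color. The paper's methods also name a mouse array and a two-color design, which the files do not show. The deposited series table holds linear ratio values, for which the authors divided the same intensities by 1 constant per array, with GeneSpring GX by their methods. Here each intensity was put on the log2 scale minus the array's 75th percentile over non-control spots. Outlier spots (1 to 12 per array) were left out, and each gene was read at the probe whose mean over the 4 arrays was highest. Where a probe was dim on 1 array the ratio is a lower bound. It was set by the dim value or by the faintest probe well above background on that array, whichever was higher. Pathway genes were named where they differed at least 2-fold after stimulation, the 8 largest per list. Members and lists were chosen with earlier results of these data known. Alternatives were other scalings, normexp (limma 3.58.1, R 4.3.3), filters, probe rules and cutoffs. The Python 3.11.15 scripts were tested on simulated data. Of the member probes 8 carried a RefSeq transcript, and all 8 matched the same symbol in RefSeq's gene table. Promoters, proteins and genome positions were not analysed here.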

Additional observations from a re-analysis of the deposited data

How the results depend on the processing

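With 1 array per condition no difference has a replicate check on the arrays, and faint probes carry the largest uncertainty in fold. The paper also ran RT-qPCR in 3 independent experiments. It names TNFAIP3, CXCL2, C3 and IL6 among genes significantly higher after TNF-α, and CFB and IL1A after both stimuli. TNFAIP3 is not among those it names as higher after serotonin. No paired analysis was possible because each group holds 1 sample, and no replicate could be left out. The median log2 ratio of the members moved from 0.19 for differentiation to -0.16 after scaling to the median and 0.57 after scaling to bright spike-in controls, and none of the 4 medians moved beyond the technical spread under the other settings. At a 4-fold cutoff 2 members differed after TNF-α in place of 4, 1 after serotonin in place of 3 and 1 between the stimuli in place of 3, where a 1.5-fold cutoff gave 5. For the pathway genes other than members, 13 of 50 differed at least 2-fold after TNF-α, where 3.56% of all gene names did. At 1.5-fold 22 differed and at 4-fold 7. Where all 4 arrays had to be well above background 7 of 41 differed, beside 453 of 16421 gene names. For differentiation 11 of 48 differed, where 13.5% of all gene names did, with 24 at 1.5-fold and 1 at 4-fold. After normexp 7 of 47 differed, beside 824 of 18524 gene names. With no filter 18 of 55 differed, beside 7130 of 34846 gene names. After serotonin 12 of 49 differed, where 6.82% of all gene names did, with 19 at 1.5-fold and 3 at 4-fold. Under normexp 5 of 46 differed, beside 578 of 18359 gene names. Between the stimuli 17 of 50 differed, where 6.90% of all gene names did, with 7 at 4-fold. Where all 4 arrays had to be well above background 11 of 41 differed, beside 1094 of 16421 gene names. Shares of all gene names at 1.5-fold and 4-fold are not given, so the counts at these cutoffs have no background beside them. Over all gene names the share of higher among those that differed 2-fold was 73.6% for differentiation and between 34.1% and 93.0% under other scalings, 30.6% after serotonin and 44.4% when scaled to spike-in controls, and 73.5% between the stimuli and 59.6% when scaled to the median. No called member changed direction under any of these settings. Adding NFKBIE by its description was chosen after seeing the data.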
